A study of Drosophila melanogaster with 2 samples.

Results

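The apical-basal polarity genes of Drosophila melanogaster were examined for binding of the transcription factor gem: crb, sdt, Patj, par-6, aPKC, baz, scrib, dlg1, l(2)gl and yrt. These 10 genes, of 13945 protein-coding genes, were listed by name, and a peak was assigned to a gene when its summit lay in the gene or within 5 kb of it, a span called the locus here. Of the 11045 peaks that passed the irreproducible discovery rate (IDR, a filter on how well peaks keep their rank between replicates), 50 fell in these loci. Binding was mapped by chromatin immunoprecipitation and sequencing with an anti-GFP antibody. The material was whole embryos, mixed male and female, aged 0 to 24 h, of a transgenic strain that stably makes gem carrying GFP at its C-terminus. The study had this 1 group with 2 biological replicates, numbered 1 and 4, and no other genotype or treatment. No embryos without the tagged protein were analysed here, so signal that does not come from gem was not measured, and whole embryos do not show which cells carry a peak. With 1 group of 2 samples, no test between conditions was possible, and every value below is a description of these lists. Each peak has a signal, the authors' own value, whose scaling is not stated. Peaks were therefore ranked by signal within a list, and a ratio of signals between the replicates' lists describes the lists and not an amount of binding. The depth of the libraries is unknown from the peak lists.

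Epithelial cells keep an apical side and a basolateral side through groups of proteins that exclude one another at the membrane. The apical Crumbs complex joins the transmembrane protein Crumbs (crb) with the scaffold proteins Stardust (sdt) and Patj. The Par complex joins the adaptor Par-6 and the kinase aPKC with Bazooka (baz), the fly Par-3. The Scribble module of the basolateral side consists of the scaffolds Scribble (scrib) and Discs large (dlg1) and of Lethal (2) giant larvae (l(2)gl), an aPKC substrate. Yurt (yrt), a FERM domain protein of the lateral membrane, restrains Crumbs. In fly embryos most of these proteins are required for the integrity of the epidermis. The genes scrib, dlg1 and l(2)gl are known as tumour suppressor genes of larval tissues. gem belongs to the CP2 branch of a transcription factor family whose other branch, Grainyhead, regulates epithelial barrier and junction genes.

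The DNA under the summits at these genes was rich in A and T, and the sequences below show this at promoters and in introns. Each is the plus strand of assembly dm6, read from the RefSeq release 6 genome, 101 bases centred on the summit of an IDR peak, with unbroken runs of at least 8 A or T bases in capitals. They are the strongest peaks of yrt, crb, dlg1, scrib and sdt, and a baz intron peak with the longest such run, followed by the peaks at the 5′ start sites of crb, sdt and scrib. Windows that touch an annotated UTR, 5 of the 50, are not printed.
yrt intron at chr3R:13433705-13433805: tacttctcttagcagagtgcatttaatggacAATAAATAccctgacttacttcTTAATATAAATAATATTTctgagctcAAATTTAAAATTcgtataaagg
crb intron at chr3R:24296034-24296134: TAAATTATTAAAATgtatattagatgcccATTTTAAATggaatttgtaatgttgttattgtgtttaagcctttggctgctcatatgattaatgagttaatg
dlg1 intron at chrX:11391013-11391113: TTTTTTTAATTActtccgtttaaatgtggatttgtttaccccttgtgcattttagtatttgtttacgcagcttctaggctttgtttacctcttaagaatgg
scrib intron at chr3R:26557642-26557742: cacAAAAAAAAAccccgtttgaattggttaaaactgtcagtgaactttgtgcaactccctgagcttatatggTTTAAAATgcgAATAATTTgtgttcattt
sdt intron at chrX:8206059-8206159: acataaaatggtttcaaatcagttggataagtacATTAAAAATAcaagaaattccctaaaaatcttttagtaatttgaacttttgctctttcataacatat
baz intron at chrX:17170540-17170640: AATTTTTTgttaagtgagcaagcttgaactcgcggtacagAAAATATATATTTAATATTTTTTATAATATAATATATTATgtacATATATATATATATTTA
crb promoter at chr3R:24294817-24294917: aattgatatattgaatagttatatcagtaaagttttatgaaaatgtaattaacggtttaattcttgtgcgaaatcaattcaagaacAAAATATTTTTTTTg
sdt promoter at chrX:8178310-8178410: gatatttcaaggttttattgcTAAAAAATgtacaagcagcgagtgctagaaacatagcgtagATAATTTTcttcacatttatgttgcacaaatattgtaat
scrib promoter at chr3R:26536088-26536188: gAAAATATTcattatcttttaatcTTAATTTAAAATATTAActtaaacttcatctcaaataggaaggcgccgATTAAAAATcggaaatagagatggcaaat

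The low G+C content was narrow and centred on the summit. The median G+C content within 50 bp of the summit was 28.7% at the 50 polarity gene peaks and also 28.7% over all IDR peaks. Windows of the same width 500 bp to either side had medians of 43.6% at the polarity genes and 43.1% over all IDR peaks. The summit window was poorer in G and C than its flanks at 45 of the 50 peaks (90.0%, exact Clopper-Pearson 95% interval 78.2 to 96.7), against 88.3% of all IDR peaks. The loci as a whole had 42.2% G+C, the same as the genome. The lowest values were 16.8% at the peak downstream of yrt and 17.8% at 2 baz peaks, and the highest was 48.5% at a scrib intron peak. A run of at least 8 A or T bases was present at 47 of the 50 summits (94.0%, interval 83.5 to 98.7), against 84.8% of all IDR summits. In the flanking windows such runs were found in 59.0% at the polarity genes and 49.7% over all IDR peaks. The longest run, 40 bases, was at the baz intron peak shown above. These intervals cover counting error only, and the comparison with all peaks was not tested.

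**Figure D1:**
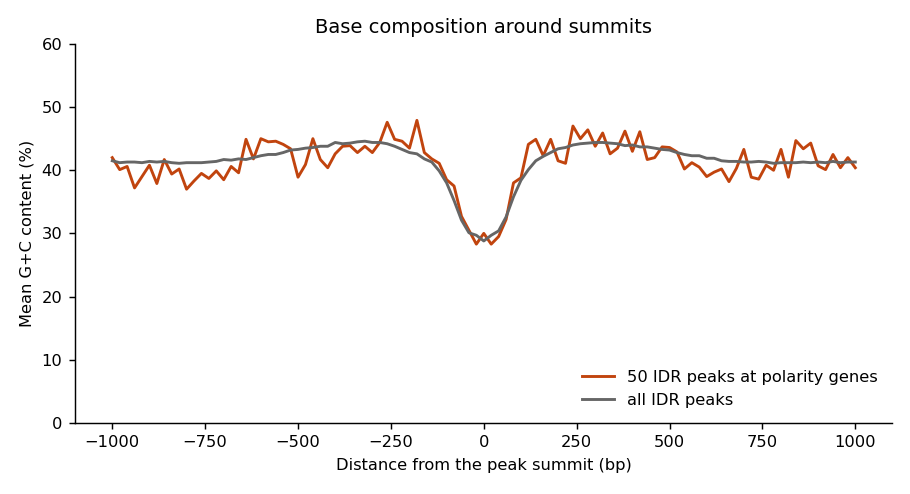
Mean G+C content (%, y axis) in bins of 21 bp against the distance from the summit (bp, x axis), for the 50 IDR peaks at polarity genes (orange) and all 11045 IDR peaks (grey). Both curves fall to 28 to 30% at the summit and return to above 40% within 200 bp.

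Peaks were found at most of the polarity genes, in numbers that differed with gene length. Of the 10 genes, 8 had an IDR peak in the locus, against 58.7% of all protein-coding genes, and 9 had a peak of the pooled list, against 68.1%. Patj and l(2)gl had no IDR peak. The polarity genes are long, with a median length of 19 kb against 2.2 kb for all protein-coding genes, and long genes have more room for a peak. Among the 4 genes of 20 kb or more, sdt, baz, scrib and dlg1, all 4 had an IDR peak, against 88.3% of protein-coding genes of that length. Among the 4 of 5 to 20 kb, crb, aPKC and yrt had one and l(2)gl did not, against 72.0%. Of the 2 shorter genes, par-6 had one and Patj did not, against 52.7%. Read against genes of like length, the count of 8 is near the background. Per length, the loci held 1.34 IDR peaks per 10 kb, against 0.88 over all protein-coding loci and 0.82 over the genome. The 8 genes with IDR peaks each had between 1.18 (baz) and 1.86 (yrt) per 10 kb.

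Promoter peaks, defined by a summit within 500 bp of a transcription start site (TSS) of the same gene, were present at 6 of the 10: crb, sdt, par-6, aPKC, scrib and dlg1. The share over all protein-coding genes was 24.6%. At crb, par-6 and aPKC, a promoter peak also lay within 500 bp of a TSS of a neighbour. For par-6 and for the 5′ TSS of aPKC, the TSS of the neighbour was the nearer one. Such shared peaks count in the share over all genes too. The 6 genes had 1 to 7 annotated TSSs each, and a gene with several TSSs has more chances of a promoter peak. Counted by TSS, 11 of the 27 TSSs of the 10 genes had an IDR summit within 500 bp, against 22.8% of protein-coding TSSs. These 11 were served by 9 peaks, 8 of which lay upstream of the TSS. By length, a promoter peak was present at 3 of the 4 genes of 20 kb or more, against 40.1% of such protein-coding genes, at 2 of the 4 of 5 to 20 kb, against 36.1%, and at 1 of the 2 shorter ones, against 20.4%.

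**Figure D2:**
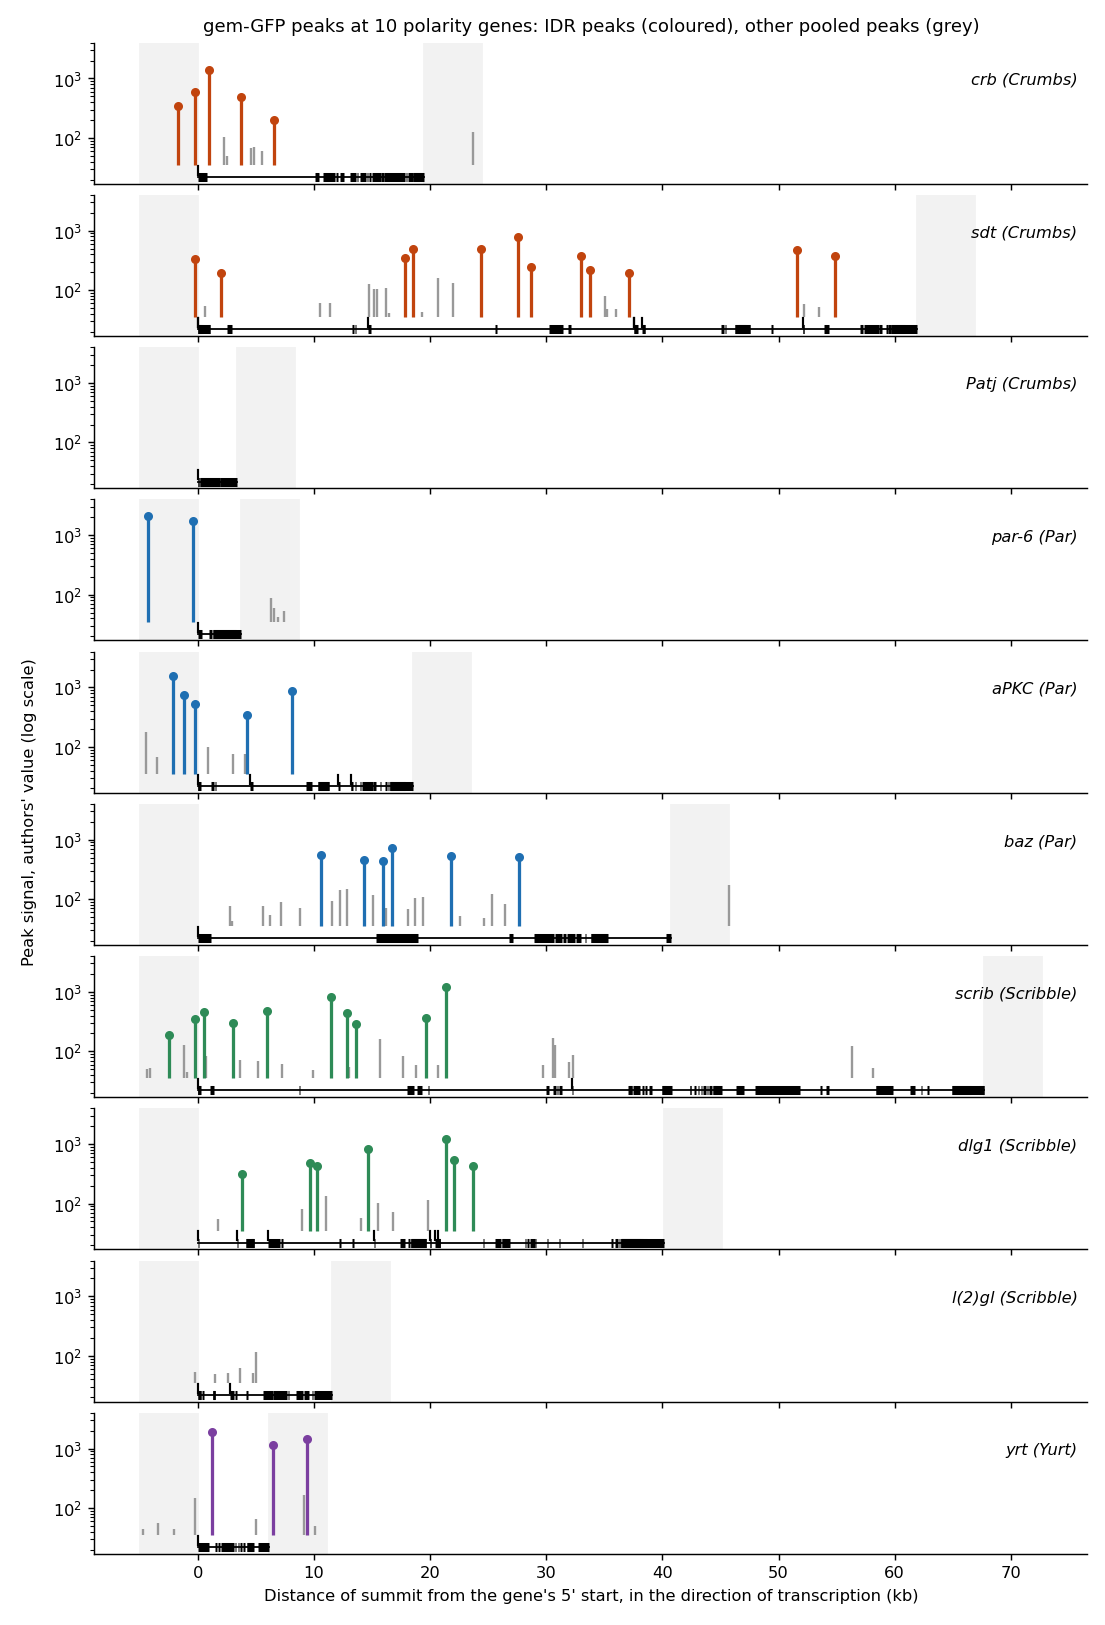
Peak signal (authors' value, log scale, y axis) at the 10 polarity genes against the distance of the summit from the gene's 5′ start in the direction of transcription (kb, x axis). Coloured stems with dots are the 50 IDR peaks, grey stems are the other 91 pooled peaks, black blocks are exons, upright ticks are TSSs and the shaded bands are the flanks of 5 kb. Coloured stems cluster in the 5′ part of crb and scrib, and the rows of Patj and l(2)gl hold no coloured stem.

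In the Crumbs complex, crb and sdt carried many peaks and Patj none. crb (3R, 24295078 to 24314541, plus strand), the apical transmembrane determinant, had 5 IDR peaks. The strongest, at chr3R:24295930-24296257 in an intron 1006 bp from the TSS, had a signal of 1399 in the IDR list, where it ranked 1448. It had 1005 in replicate 1, with rank 1442, and 389.8 in replicate 4, with rank 1509, so its place was nearly the same in both. The promoter peak of crb, 591 at chr3R:24294784-24294955, lay 211 bp upstream of its single TSS and within 500 bp of a TSS of the neighbour CG5715. It had 398 in replicate 1 and 187 in replicate 4. The remaining crb peaks were 480.4 and 197 in introns and 342 inside the neighbour Uck, and none lay in the 3′ 12.9 kb of the gene.

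sdt (X, 8178549 to 8240474, plus strand), the scaffold that binds the Crumbs tail, had 12 IDR peaks, the most of the 10 genes. It is also among the longest, and its 1.67 IDR peaks per 10 kb lay within the range of the other genes. None was strong: the range was 195 to 794 with a median of 361, below the median of 432 over all IDR peaks. The highest, at chrX:8205947-8206261 in an intron 10020 bp from the nearest TSS, had 553 in replicate 1 and 230.5 in replicate 4. The promoter peaks of sdt lay at 3 separate regions. These were the 5′ start (333), near a pair of TSSs at 37580 bp and 37596 bp (197) and at a TSS 52065 bp downstream (479.9). The TSSs at 14651 bp and 38275 bp had no IDR summit within 500 bp. A weaker pooled summit of 127 lay 105 bp from the TSS at 14651 bp, with 71.2 in replicate 1 and 55.7 in replicate 4. The peak at the 5′ start was the only one of the 50 without a partner within 100 bp in both replicates. It had 152 in replicate 4, with rank 4915, and the nearest summit in replicate 1 was 770 bp away with a signal of 40.7.

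Patj (3L, 1798803 to 1802184, plus strand), the multi-PDZ scaffold of the complex, had no peak in its locus in the IDR list, the pooled list, replicate 1 or replicate 4. The nearest IDR summit was 6680 bp from the gene, with a signal of 1966.5, and the TSS nearest to it belonged to the non-coding gene lncRNA:CR45687. How much of this locus could yield a peak was not measured, so an absence of binding is not shown.

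In the Par complex, all 3 genes had IDR peaks, and the strongest of all 50 lay near par-6. par-6 (X, 17703352 to 17707096, plus strand), the PDZ adaptor that binds aPKC, had 2, both upstream. The first, 2128 at chrX:17698815-17699261, ranked 742 and had 1462 in replicate 1 and 675 in replicate 4. It was 4311 bp from the par-6 TSS and 311 bp from a TSS of chas, so it lies in the locus by distance but at the promoter of another gene. The second, 1753 at chrX:17702717-17703084, ranked 1032, with 1181 in replicate 1 and 569 in replicate 4. It lay 420 bp upstream of the par-6 TSS and 92 bp downstream of a TSS of CG8188, which runs the opposite way, so the data do not show which of this pair of genes it belongs to. No IDR summit lay inside par-6.

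aPKC (2R, 14944458 to 14962969, minus strand), the kinase of the complex, had 5 IDR peaks with a median of 748. The strongest, 1556 at chr2R:14964882-14965318, had 1093 in replicate 1 and 466 in replicate 4, and lay 2080 bp upstream of the aPKC start inside the neighbour ckn. Both peaks of 1556 and 748 were inside ckn, and another, 519 at 185 bp upstream of the 5′ TSS of aPKC, was also 138 bp upstream of a TSS of ckn. It had 338 in replicate 1 and 179.9 in replicate 4. The second TSS of aPKC, 4513 bp downstream, had a peak of 339.5, and an intron held one of 864.5. The TSSs at 12058 bp and 13224 bp had none. Replicate 4 also held a peak of 263, with rank 2617, inside the span of the 1556 peak and 197 bp from its summit. The nearest replicate 1 summit was 182 bp away, beyond the 100 bp used for matching, so a site particular to replicate 4 is not shown.

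baz (X, 17160006 to 17200728, plus strand), the fly Par-3, had 6 IDR peaks of similar signal, 442 to 721, and none at its promoter. The nearest IDR summit was 10584 bp downstream of its single annotated TSS, and the nearest pooled summit 2791 bp away. Of the 6, 4 were intronic and a pair lay in an annotated 5′ UTR exon about 16 to 17 kb downstream. The strongest, 721 at chrX:17176601-17176925 in that UTR exon, had 515.5 in replicate 1 and 205 in replicate 4. A further 19 pooled peaks lay in the locus, with signals up to 173, beside 21 at scrib and 16 at sdt, which are longer genes.

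In the Scribble module, scrib and dlg1 carried IDR peaks, most of them in introns, and l(2)gl had only weaker pooled ones. scrib (3R, 26536350 to 26604051, plus strand), a scaffold with leucine-rich repeats and PDZ domains, had 10 IDR peaks. The strongest, 1204 at chr3R:26557524-26557859 in an intron, had 808 in replicate 1 and 401 in replicate 4. The next was 816, also intronic, and the promoter peak was 356, 212 bp upstream of the 5′ TSS, with 218 in replicate 1 and 146 in replicate 4. No IDR summit lay in the last 46.4 kb of this 67.7 kb gene. The second TSS of scrib, 32263 bp downstream and used by 1 annotated transcript, had no IDR peak, with a weaker pooled summit 59 bp away.

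dlg1 (X, 11369665 to 11409776, plus strand), a scaffold of the MAGUK family, had 7 IDR peaks, all inside the gene. The strongest, 1214 at chrX:11390629-11391344, was 716 bp wide, the widest of the 50. It had 838 in replicate 1 and 379 in replicate 4. It lay in an intron 691 bp downstream of the last of a group of 3 TSSs. The second, 837, was 542 bp upstream of another TSS. Both fell just outside the 500 bp window, and by that window the only promoter peak was 318 at 481 bp downstream of a TSS. The 5′-most TSS, where 7 transcripts start, had no IDR summit within 3841 bp.

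l(2)gl (2L, 9839 to 21376, minus strand), the aPKC substrate near the end of its chromosome arm, had 0 IDR peaks and 6 pooled ones of 50.3 to 114. The strongest, at chr2L:16152-16555, had 57.9 in replicate 1 and 51.9 in replicate 4, and ranked 15264 of 30000 in the pooled list. Pooled summits lay 186 bp and 177 bp upstream of its TSSs with signals of 53.6 and 52.1, each matched in 1 replicate only. The nearest IDR peak was 50603 bp away.

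yrt (3R, 13428867 to 13434984, minus strand), which limits Crumbs on the lateral side, had 3 IDR peaks, all above 1000. The peak inside the gene, 1863 at chr3R:13433570-13433949 in an intron 1229 bp downstream of the TSS, ranked 924, with 1240 in replicate 1 and 629 in replicate 4. The others lay downstream of yrt. One, 1427 at chr3R:13425408-13425864, was 373 bp from a TSS of Act87E, a muscle actin gene, and had 1074 in replicate 1 and 365 in replicate 4. The other, 1159 at chr3R:13428363-13428670 in the gap between yrt and Act87E, had 920.5 in replicate 1 and 238 in replicate 4. The TSS of yrt had no IDR summit within 500 bp, with a pooled summit of 149 at 210 bp that had 103 in replicate 1 and 41.9 in replicate 4.

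**Figure D3:**
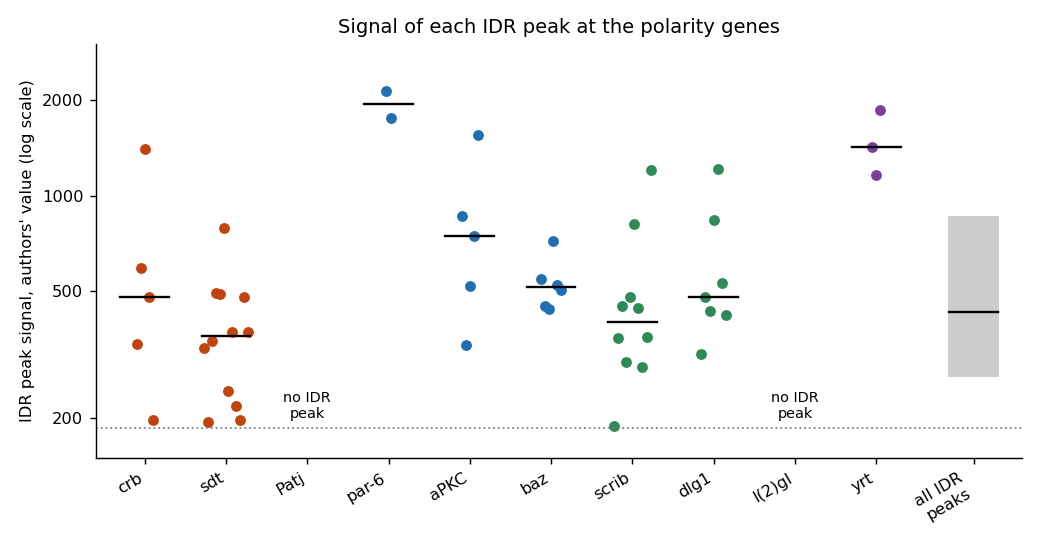
Signal of each IDR peak (authors' value, log scale, y axis) for the 10 genes (x axis), with a bar at each gene's median. On the right, the grey box spans the lower to the upper quartile of all 11045 IDR peaks, 271 to 855, with its median of 432. The dotted line is the lowest IDR signal, 187. Peaks of par-6 and yrt all sit above 1000, while every sdt and baz peak sits below it.

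The typical polarity gene peak was of middle rank. The 50 signals ran from 189 to 2128 with a median of 479.6, against 432 over all IDR peaks, whose highest was 17818. The ratio of these medians, 1.11, turned to 0.67 when only the 5522 strongest IDR peaks were used. With the IDR list split by rank into 4 equal parts, the strongest held 10 of the 50, the next 22, the one after 12 and the weakest 6. The 1104 strongest IDR peaks included 3 of the 50 (6%, interval 1.25 to 16.5): both par-6 peaks and the intron peak of yrt. Signals above 1000 were reached by 9 of the 50 (18%, interval 8.58 to 31.4), against 20.5% of all IDR peaks. By group, the median was 372 over the 17 peaks of the Crumbs complex, 547 over 13 of the Par complex, 442.5 over 17 of the Scribble module and 1427 over 3 of yrt. Peaks of 1 gene share their surroundings and are not replicates of a group, so these medians carry no test.

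Nearly all of these peaks were present in both replicates. Of the 50, 49 (98%, interval 89.4 to 99.9) had a summit within 100 bp in both replicates' own lists, against 94.3% of all IDR peaks. Among the 11045 strongest of each replicate, 41 of the 50 (82%, interval 68.6 to 91.4) were found in both, against 79.6%. Across the 49 matched peaks the Spearman coefficient of replicate 1 with replicate 4 signal was 0.87, the same as over all 10416 matched IDR peaks. The coefficient is across peaks that share 2 libraries, and the IDR list was itself made from these replicates. The ratio of replicate 1 to replicate 4 signal had a median of 2.4 and ran from 1.36 to 6.08 at the polarity genes, against a median of 2.44 over all matched IDR peaks. The highest ratios were 6.08 at a sdt intron peak of 218 and 5.17 at the crb peak of 342 inside Uck. The signal of the pooled list was close to the sum of both replicates at every matched polarity peak, with a quotient between 0.975 and 1.02. Strong peaks are here the 11045 strongest of each replicate. In replicate 1, 1 of the 50 strong peaks in these loci (2%), a baz peak of 132, had no partner in replicate 4. The share over all strong replicate 1 peaks was 7.22%. In replicate 4, 6 of 51 (11.8%) had none in replicate 1, against 9.88% of all strong replicate 4 peaks. The 6 were 3 at sdt, 2 at aPKC and 1 at crb, with signals of 68.2 to 263. A partner here is a summit within 100 bp. The aPKC peak of 263 and the crb peak of 68.2 had a replicate 1 summit 182 bp and 196 bp away.

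**Figure D4:**
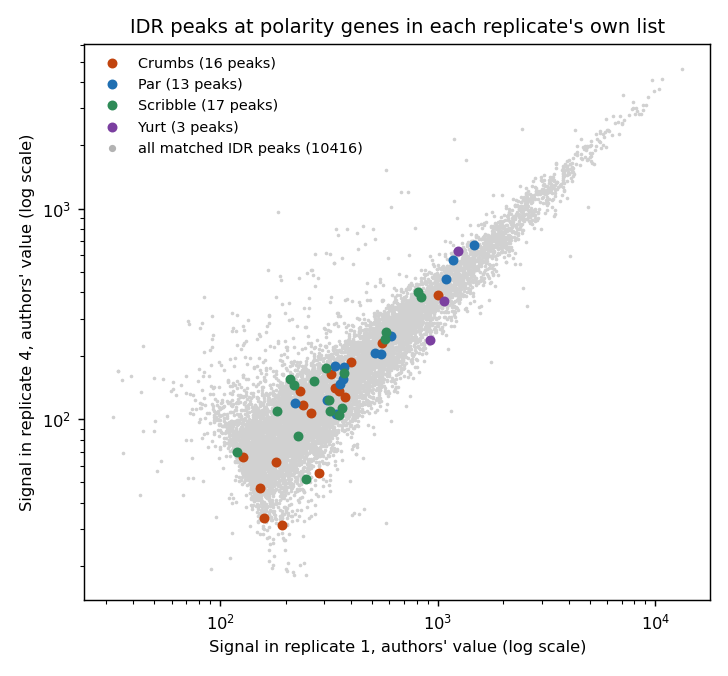
Signal in replicate 1 (x axis) against signal in replicate 4 (y axis), both the authors' values on log scales, for the 49 polarity gene peaks matched in both replicates, coloured by group, and all 10416 matched IDR peaks (grey). The coloured points lie within the grey cloud, with both par-6 peaks and the yrt intron peak furthest to the upper right.

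Most summits lay in introns, in genes whose bodies were 17.7% coding sequence. Intron shares over all IDR peaks are not given, so the counts describe these loci only. Of the 50 summits, 32 lay in introns outside promoter windows, with signals of 195 to 1863 and a median of 479.1, and 19 of these were in the first intron of at least 1 transcript. A further 9 were at promoters of the gene itself, 2 at promoters of neighbours, 4 inside neighbouring genes, 2 in 5′ UTR exons and 1 between genes. None lay in coding sequence of its own polarity gene. A count of 0 of 50 allows a share of up to 6%, taken as 3 counts of the total. Coding sequence of neighbouring genes was not part of these classes. The share of all IDR summits in coding sequence is not given, so this count has no comparison with all peaks. Of the 38 summits inside the genes, 28 (73.7%, interval 56.9 to 86.6) were closer to the 5′ than to the 3′ end of the gene, against 67.5% over the protein-coding genes of 5 kb or more. Counting promoters of any gene, 11 of the 50 (22%, interval 11.5 to 36) were promoter peaks, against 30.4% of all IDR peaks. With a window of 250 bp the share at the polarity genes was 12%, and with 1000 bp it was 34%. The share over all IDR peaks is given for 500 bp only, so these values have no comparison. The 11 had a median signal of 479.9 and the 39 distal ones 479.4.

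Known motifs were rare under the summits. AACCGGTT, a site bound by Grainyhead, searched on both strands within 50 bp of the summit, was in none of the 50, which allows up to 6% by the same limit of 3 counts, and in 0.244% of all IDR peaks. The shorter form ACCGGTT was at 1 of the 50, the sdt intron peak of 218, against 0.398% of all IDR peaks. The forms CCGGTT (1.35% of all IDR peaks) and ACCGGT (0.507%) lie within it and were found at that peak alone. Within whole peaks, ACCGGTT occurred once more, at the peak between aPKC and ckn, 97 bp from the summit. GAGAG, the core bound by GAGA factor, was at 1 of the 50 summits (2%, interval 0.0506 to 10.6), in a baz intron. This interval includes the 6.9% found over all IDR peaks, so a lower share at the polarity genes is not shown. GAGAG was in 15% of the flanking windows at the polarity genes and in 14.1% over all IDR peaks. The share at the polarity gene summits depended on the window and the list. It was 12% within 100 bp, 20% in whole peaks, 3.92% without replicate 1 and 4% without replicate 4. The 6.9% over all IDR peaks holds for the 50 bp window only, so the wider windows have no comparison here. CAGGTAG (the Zelda site), TATCGATA (the DNA replication element) and GGTCACACT (part of core promoter motif 1) were at none of the 50, against 0.335%, 0.634% and 0.19% of all IDR peaks. In whole peaks TATCGATA was present at the sdt intron peak of 794, 67 bp from the summit, and at the par-6 promoter peak, 114 bp and 122 bp from the summit. A window without these letters says nothing about the factor itself.

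The limits of distance and signal set which peaks were counted. The IDR peaks nearest to the 5 kb limit were, inside, the chas promoter peak of 2128 at 4311 bp from par-6 and, outside, a peak of 387 at 5011 bp from crb and one of 389.5 at 5173 bp from aPKC. The weakest IDR peak in the loci was 189, upstream of scrib, and the strongest pooled peaks just below the IDR list were 178 near aPKC and 173 downstream of baz. Below the list, 91 more pooled peaks lay in the loci, with signals of 41.4 to 178 and a median of 70.1. Of these, 42 (46.2%, interval 35.6 to 56.9) had a summit within 100 bp in both replicates, against 45.7% of all pooled peaks outside the IDR list, 31 in replicate 1 only, 15 in replicate 4 only and 3 in neither.

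Other genes that act with the polarity proteins were counted in the same way. Of 26 such genes, 21 had an IDR peak in the locus and 16 a promoter peak. The shares over all protein-coding genes were 58.7% and 24.6%. The 26 were chosen with earlier results of these data known, so the difference from these shares was not tested. Several of the promoter peaks also lay within 500 bp of a TSS of another gene, and the share over all genes counts such peaks too. These genes too are long, with a median of 10.25 kb, and protein-coding genes of 5 to 20 kb had shares of 72.0% and 36.1%. The strongest promoter peak was 3498 at numb, a cell fate determinant that aPKC phosphorylates, 144 bp from its TSS. It was followed by gukh, whose product binds Discs large and Scribble, with 1820.5 at a promoter shared with snRNP-U1-C, and by Atpalpha, the Na+/K+ pump subunit of septate junctions that acts with Yurt, with 1817. Moe (moesin) had 1594.5, and 14-3-3zeta, which binds phosphorylated Bazooka, had 1122. No IDR peak was present at Lkb1, veli (the Lin-7 partner of Stardust), mira, cora or Nrx-IV. Among both sets of genes, the promoter peak of par-6 was thus exceeded by those of numb, gukh and Atpalpha.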

How the data were processed

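ChIP-seq peak lists from 2 biological replicates of 1 group were used. Per the labels and the listings that the authors deposited beside each sample, each replicate's peaks were called on its own alignments with a control alignment, the pooled list on both replicates, and the IDR list from these, on dm6. The aligner, the caller, the IDR threshold and their versions are not given in the sources used here. The deposited signal of each peak was used as the authors wrote it. The deposited −log10 q-value was at its maximum, 4.29, in 45 of the 50 polarity gene peaks and was not used for ranking. Gene models were Ensembl release 115 (BDGP 6.54) without transposable elements. Summits were column 2 plus column 10, and coordinates are 1-based. Replicate summits were matched within 100 bp. Intervals are exact Clopper-Pearson. Python 3.11.15, pandas 2.3.3 and SciPy 1.17.1 were used, and the matching, locus and motif functions were tested on simulated data. The genes, the list of 26 others and the motifs were chosen with earlier results of these data known. The sequence windows and length classes were chosen after the data were seen. Named were all 10 genes with their strongest, promoter and strongest distal peaks, genes with a TSS at those peaks, and of the 26 others the 6 with the strongest promoter peak and those without an IDR peak, except that 1 of the 6 is not reported here. Other peaks named were chosen after their values were seen.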

Additional observations from a re-analysis of the deposited data

How the results depend on the processing

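The number of genes with an IDR peak stayed between 7 and 9 under every alternative run, reaching 9 with flanks of 10 kb or with all pooled peaks and 7 when only summits nearest to the gene's own TSS among protein-coding TSSs were counted, a choice made after the data were seen that left 39 peaks and dropped par-6. The number with a promoter peak was 4 to 8, and the share over all protein-coding genes is given only under the main setting. Among the 5522 strongest IDR peaks the loci held 32 peaks, and the ratio of their median to that of the list was 0.67, against 1.11 over the whole list, a change of direction. In the same set ACCGGTT and its parts CCGGTT and (without its last base) ACCGGT were at 0% of summits, as was the full form without replicate 1. Leaving out a replicate gave 50 or 51 peaks, promoter shares of 22% to 31.4% and ratios of 1.1 to 1.12. Requiring the 11045 strongest peaks of both replicates lowered the matched share to 82%. GAGAG was in 12% of windows of 100 bp and 20% of whole peaks. The other 83 of 92 alternative values stayed within the limits set for them. For a share, the limit was the 95% interval of the reported share, such as 11.5 to 36 around the promoter share of 22%. Most of the 92 were motif shares near 0%, which can hardly leave such limits upward, so this tally is a weak check. No paired analysis was possible because the study has 1 group. Depth is unknown, so the weakest binding these libraries could detect at Patj and l(2)gl was not measured.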
